A study of Mus musculus with 2 samples.

Results

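The DNA replication and S-phase genes are 45 genes listed by name, under a rule that uses no measured value, out of 32285 genes in each count matrix. They encode the proteins that license and fire replication origins, copy the DNA, make its building blocks, pack the new chromatin, and time the entry into S phase. Their levels were followed in muscle stem cells (MuSCs) sorted from the plantaris, a plantar flexor of the mouse hind limb, after sham surgery or during mechanical overload (MOV). All mice carried the Pax7rtTA and TRE-H2B-GFP alleles on a C57BL/6 background, were 26 weeks old, and received 2 mg/ml doxycycline in drinking water for 2 weeks. In these mice the tetracycline activator rtTA is made from the Pax7 locus, so that a histone H2B-GFP fusion labels the nuclei of MuSCs while doxycycline is given. In the MOV group the synergist muscles had been partly removed, and the sham group received the incision without removal. Plantaris muscles were taken 5 days after surgery, and VCAM+ CD31- CD45- SCA1- cells were sorted for single-cell RNA sequencing. The methods describe several mice of both sexes per condition whose cells were pooled, whereas the labels speak of a single mouse. Either way there was 1 library per condition, so a difference between sham and MOV has no replicate check, and no test was made.

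Before S phase, the origin recognition complex, Cdc6 and Cdt1 load the ring-shaped Mcm2 to Mcm7 helicase onto DNA, a step called licensing. At the start of S phase, Cdc45 and the GINS complex turn the loaded helicase into a working replication fork, where DNA polymerases, held by the sliding clamp Pcna, copy both strands. Many of these genes are targets of the E2F factors. These factors are held back by the retinoblastoma protein in resting cells such as MuSCs of undisturbed adult muscle. They are released when cells are driven into division.

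Because E2F factors bind sequences close to the transcription start, promoters of the members were searched for 4 forms of the E2F core word, TTTCCCGC, TTTCGCGC, TTTGCCGC and TTTGGCGC, on both strands. Promoter sequences (250 bases before to 50 bases after the start) came from RefSeq on GRCm38.p6, the build of the matrices (mm10), and were at hand for 39 of the 45 members. At least 1 of the words was found in 16 of 39 member genes (41.0%), or in 16 of 44 member promoters (36.4%), compared with 744 of 32851 promoters of all genes (2.26%) and 607 of 21263 of protein-coding genes (2.85%). Among 55 other replication genes that are not members, a word was found in 19 of 53 promoters (35.8%), so the share is not particular to the members. The CCAAT box (CCAAT, both strands), which was searched as a second common promoter word, was found in 27 of 44 member promoters (61.4%) and in 12289 promoters of all genes (37.4%). In the other replication genes it was found in 25 of 53 promoters (47.2%). The word is a match of letters and not a shown binding site. Short stretches around the word are given for an origin recognition subunit, a helicase loader and the helicase itself, for a chromatin remodeler of S phase, and for the ubiquitin ligase subunit that removes Cdt1. They are written along the strand of the gene, in lower case with the E2F word in capitals.
Orc1, chr4:108579416-108579445, plus strand, overlapping an annotated exon: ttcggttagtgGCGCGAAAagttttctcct
Cdc6, chr11:98908002-98908031, plus strand, in an intron: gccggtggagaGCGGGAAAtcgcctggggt
Mcm5, chr8:75109347-75109376, plus strand, before every annotated transcript: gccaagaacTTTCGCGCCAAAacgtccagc
Mcm6, chr1:128359795-128359824, minus strand, before every annotated transcript: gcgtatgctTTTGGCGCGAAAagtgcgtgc
Hells, chr19:38930917-38930946, plus strand, overlapping an annotated exon: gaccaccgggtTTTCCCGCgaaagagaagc
Dtl, chr1:191575545-191575563, minus strand, before every annotated transcript: cgtgacgtcagTTTGGCGC
In Mcm5 and Mcm6 the capitals hold 2 overlapping words that face opposite ways. The other members with a word were Mcm3, Mcm7, Cdt1, Clspn, Rfc3, Pclaf, Lig1, Pold1, Pola1 and Uhrf1.

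The measurement is a count of unique molecular identifiers (UMIs), each of which stands for a captured transcript 3′ end. The sham library held 1100 cells and 7302661 UMIs, and the MOV library 3854 cells and 88498487 UMIs, with medians of 4116.5 and 16836 UMIs per cell. After removal of cells with a mitochondrial share of at least 10% and of likely doublets, 734 sham and 2985 MOV cells were left. Of these, 143 sham and 2233 MOV cells passed a marker gate of a described class, and another 404 sham cells were droplets led by adult fiber myosin. MuSCs were cells with at least 3 UMIs of Pax7, Myf5, Chodl, Cdh15 and Fgfr4 together, and these markers summed to 1055 counts per 1000000 UMIs (CPM) in non-cycling sham, 829 in non-cycling MOV and 495 in cycling MOV MuSCs. Cells were called cycling when they held at least 3 UMIs of Mki67, Top2a and Ube2c (marker gate), or at least 5 UMIs of 43 replication-dependent histone genes (histone gate). None of the gate genes is a member. Barcodes occurring in both libraries numbered 44, the lighter copy holding a median of 2.11% of the UMIs of the deeper one, and leaving out the lighter copies changed no count of members.

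All UMIs of a member in a class were added up and given as CPM, and 2 classes were compared by the log2 ratio of CPM with an exact 95% interval. All intervals cover counting error only. A member counts as higher or lower when its log2 ratio, with 0.5 UMIs added, was at least 1 or at most -1, that is 2-fold, among genes with at least 20 UMIs over both classes. Such a count is set beside the share of all genes that passed the same rule. For counts in subsets chosen by depth or by 0 marker UMIs, and under other settings, that share is not given. Those counts cannot be set against a background. Since 3′ UMIs depend on the gene, levels are compared between cells and not between genes.

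Replication genes were higher in dividing MuSCs. In the MOV library the 45 genes summed to 3526 CPM in 718 cycling MuSCs and to 764 CPM in 784 non-cycling MuSCs, a 4.62-fold difference (log2 ratio 2.21, 2.18 to 2.24). All 45 members were at least 2-fold higher in cycling cells, beside 8.91% of all genes tested, and their median log2 ratio was 2.21 compared with -0.04 over all genes. Some members, such as Orc1 and Mcm10, had enough UMIs only through the cycling cells, so the count follows in part from the rule on UMIs. Single members ranged from 1.18 for Rfc1 to 4.63 for Mcm10. Cycling cells also held more UMIs, with a median of 35592 per cell compared with 16166. In cells of 20000 to 60000 UMIs alone (461 cycling and 233 non-cycling), the summed log2 ratio was 2.02 (1.98 to 2.06) and 44 of 45 members were higher, with Rfc1 below the limit at 0.84. Stromal markers (Pdgfra, Lum, Dcn, Col1a1 and Col3a1) summed to 2166 CPM in the non-cycling and 771 CPM in the cycling cells, with each of them detected in both. The part of these stromal transcripts in the difference was not tested.

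**Figure D1:**
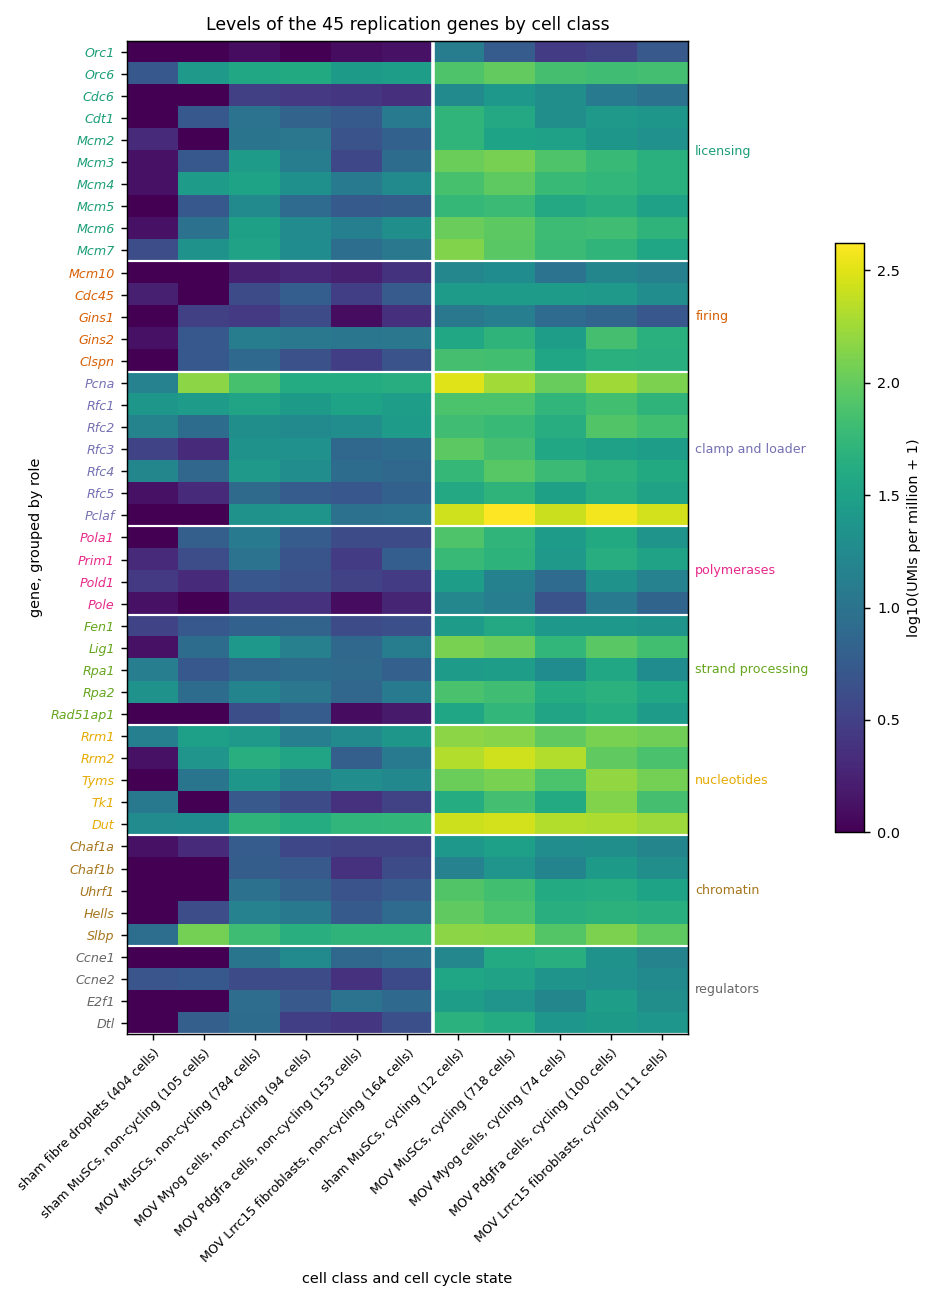
Levels of the 45 genes, as log10 of CPM plus 1, in each cell class (columns, all sham fiber droplets and the non-cycling classes left and cycling classes right of the white line) with genes in rows grouped by role. Within a class the cycling column is brighter than the non-cycling one, with the sum over the genes at 3526 CPM in cycling and 764 CPM in non-cycling MOV MuSCs.

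Licensing genes were higher in cycling cells from very different starting levels. The helicase subunits were already measured in non-cycling MOV MuSCs. Mcm3 lay at 26.7 CPM there and at 121 CPM in cycling cells (log2 ratio 2.18, 2.02 to 2.34). Mcm6 lay at 29.8 and 90.1 CPM (1.60, 1.45 to 1.75), and Mcm7 at 31.7 and 88.1 CPM (1.47, 1.33 to 1.62). Thus these subunits of the ring were higher in dividing cells, from a level well above 0 in the others. The log2 ratios of Mcm2, Mcm4 and Mcm5 were 1.82, 1.55 and 1.83. Orc6, a small subunit of the origin recognition complex, was likewise present in both, at 35.7 and 96.8 CPM (1.44, 1.30 to 1.58). The large subunit Orc1, which is known to be broken down and remade in each cycle, had 3 UMIs in all non-cycling cells and 146 in cycling cells (4.47, 2.90 to 6.77). Cdc6, the loader that recruits the helicase, lay at 2.16 and 24.2 CPM (3.49, 2.96 to 4.07). Its partner Cdt1 lay at 9.06 and 36.9 CPM (2.03, 1.76 to 2.30). Over the 10 licensing genes the median log2 ratio was 1.82.

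Genes that fire the licensed origin differed more. Mcm10, which helps to start the fork, had 10 UMIs in non-cycling and 542 in cycling cells, at 0.719 and 17.8 CPM (4.63, 3.74 to 5.70). Cdc45 lay at 3.02 and 27.2 CPM (3.17, 2.73 to 3.66), and the GINS subunits Gins1 and Gins2 gave log2 ratios of 2.75 and 2.08. Clspn, the claspin adaptor of the replication checkpoint, lay at 6.90 and 66.9 CPM (3.28, 2.98 to 3.59). The median over these 5 genes was 3.16, the highest of the 8 roles.

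The sliding clamp and its loader were spread widely. Pcna (chromosome 2, 132249162 to 132253314, minus strand), the clamp itself, had the most UMIs of all members in non-cycling MOV MuSCs, 984, and lay at 70.8 CPM there and at 180 CPM in cycling cells (1.35, 1.25 to 1.45). The large clamp loader subunit Rfc1 showed the smallest ratio of all members, from 33.2 to 75.3 CPM (1.18, 1.04 to 1.33), within counting error of that of Slbp. Rfc2, Rfc3 and Rfc4 had ratios of 1.63, 1.70 and 1.82, and Rfc5 one of 2.82 from 7.05 to 49.9 CPM. Pclaf (chromosome 9, 65890237 to 65903266, plus strand), whose product binds Pcna, lay far from the others. It rested on 298 UMIs in non-cycling and 12806 in cycling cells, at 21.4 and 420 CPM (4.29, 4.13 to 4.46), and gave more UMIs than any other member in cycling cells.

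Polymerases and strand processing genes lay between these. Pola1 and Prim1, of the primase complex that begins each strand, had log2 ratios of 2.21 and 2.46. Pold1, the catalytic subunit for the lagging strand, lay at 4.10 and 13.3 CPM (1.70), and Pole, its leading strand counterpart, at 1.44 and 12.1 CPM (3.08, 2.43 to 3.80). Fen1 and Lig1, which trim and seal Okazaki fragments, had ratios of 2.78 and 2.13. Rpa1 and Rpa2, which cover single-stranded DNA, had ratios of 2.15 and 2.16 that overlapped in their intervals. Rad51ap1, a gene of recombination repair, lay at 3.31 and 54.0 CPM (4.03, 3.61 to 4.49).

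Nucleotide supply and chromatin genes were next in order of role. Rrm2 (chromosome 12, 24708241 to 24714146, plus strand), the regulated subunit of ribonucleotide reductase, lay at 43.9 and 269 CPM (2.61, 2.50 to 2.74), with 8195 UMIs in cycling cells. Its partner Rrm1 had a ratio of 2.47. Dut, which removes dUTP, lay at 49.5 and 276 CPM (2.48, 2.37 to 2.59), and thymidylate synthase Tyms at 23.6 and 125 CPM (2.40). The salvage enzyme thymidine kinase, Tk1, stood apart with 4.46 and 68.3 CPM (3.94, 3.57 to 4.33). Among chromatin genes, the histone chaperone subunits Chaf1a and Chaf1b had ratios of 2.63 and 2.18, Uhrf1, which keeps DNA methylation through replication, 2.96, and the remodeler Hells 2.49. Slbp (chromosome 5, 33634952 to 33652574, minus strand), which binds the stem-loop of histone mRNA, was high in both states with 63.5 and 144 CPM (1.19, 1.08 to 1.29).

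The 4 regulators differed from each other. The cyclin gene Ccne1 lay at 9.57 and 39.4 CPM (2.04, 1.78 to 2.31), and Ccne2 at 3.02 and 31.8 CPM (3.40, 2.95 to 3.88), so the intervals of the 2 E-type cyclin ratios did not overlap. E2f1 lay at 7.70 and 22.2 CPM (1.53, 1.23 to 1.84). Dtl, which directs Cdt1 to destruction, lay at 7.48 and 40.4 CPM (2.43, 2.14 to 2.74). The 16 members with an E2F word in the promoter had a median log2 ratio of 2.19 (1.47 to 4.47). The 23 members without one had a median of 2.40 (1.18 to 4.63). The ranges overlapped, and a link between the word and the ratio was not tested.

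**Figure D2:**
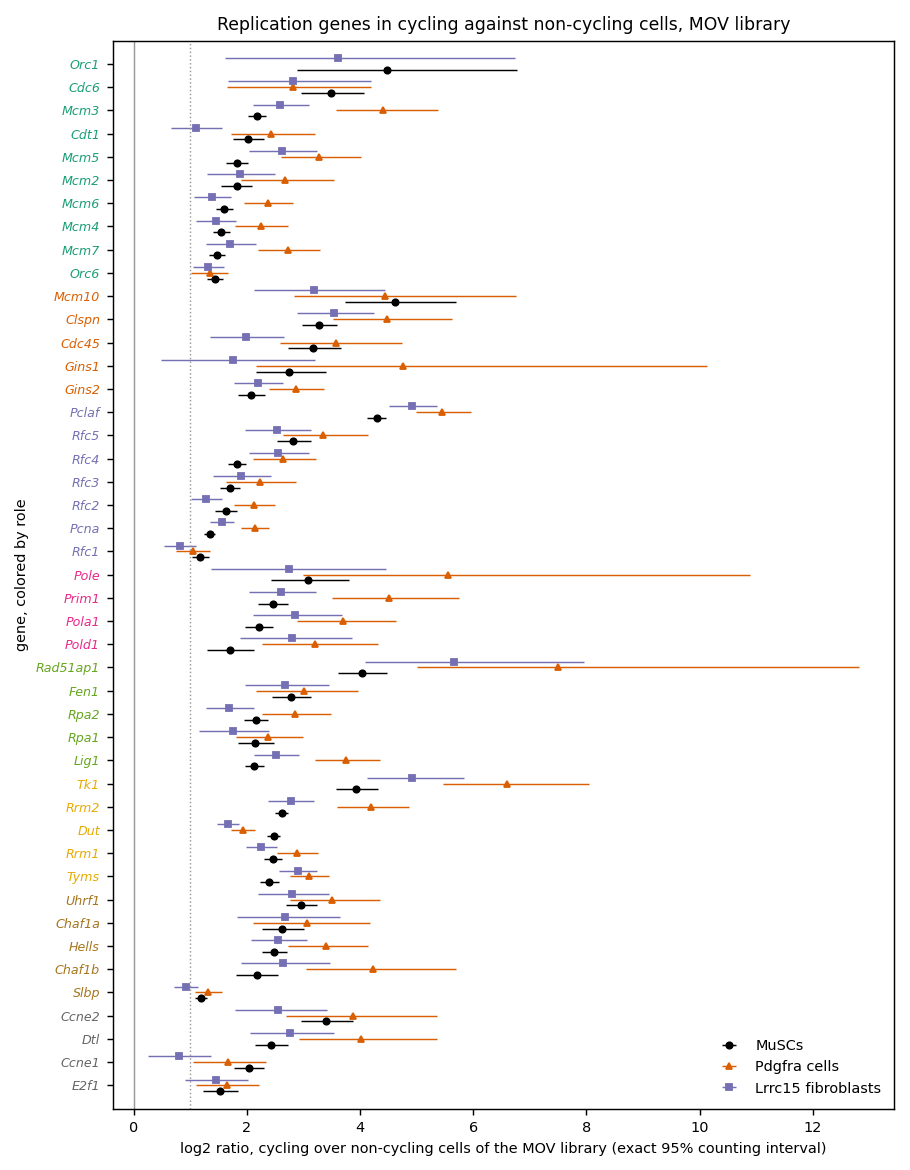
Log2 ratio of CPM in cycling over non-cycling cells (horizontal axis) for each of the 45 genes in MOV MuSCs, Pdgfra cells and Lrrc15 fibroblasts, with bars for the 95% counting interval and a dotted line at a ratio of 1. In MuSCs every point lies right of the line, from Rfc1 at 1.18 to Mcm10 at 4.63, and Orc1 is not shown for Pdgfra cells.

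Other replication genes that are not members were read from a list of 55. Of these, 47 were at least 2-fold higher in cycling MOV MuSCs, beside 8.91% of all genes, and 0 lower, beside 9.07%. Their median log2 ratio was 1.86. Among those with the highest ratios were Esco2, which joins sister chromatids (7.41), the cyclin Ccna2 (5.48) and the repressor E2f7 (4.49), while Recql4 had 52 UMIs in cycling and 0 in non-cycling cells, a log2 ratio of at least 2.98 against a floor of 3 UMIs. Gmnn, the inhibitor of Cdt1, lay at 5.47 and 68.1 CPM (3.64). The lowest were the polymerase subunits Pold4 (-0.93) and Pole4 (0.24) and the origin recognition subunits Orc4 (0.17) and Orc3 (0.43), which stand in contrast to the ratios of 4.47 and 1.44 of Orc1 and Orc6.

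Histone genes are transcribed mainly in S phase, whereas Mki67, Top2a and Ube2c mark later stages as well, so the gates divide cycling MOV MuSCs. Histone UMIs were not limited to dividing cells, since Hist1h4i and Hist1h4h lay at 109 and 107 CPM in sham fiber droplets. In cycling MOV MuSCs they lay at 42.8 and 30.2 CPM, so passing the histone gate alone does not establish S phase. The members summed to 3940 CPM in 478 cells that passed both gates, to 2337 CPM in 216 cells of the marker gate only, and to 1100 CPM in 24 cells of the histone gate only. Cells of both gates exceeded marker-only cells by a log2 ratio of 0.75 (0.73 to 0.78). All members except Orc1 (-0.14, -0.70 to 0.46) had a ratio above 0, and 8 of 45 were at least 2-fold higher, beside 3.38% of all genes. These were Tk1 (1.43), Ccne1 (1.34), Ccne2 (1.32), Pclaf (1.27), Tyms (1.19), Dut (1.13), Pole (1.13) and Cdc6 (1.12). Thus they included 3 of the 5 nucleotide genes and both E-type cyclins. The helicase genes Mcm5 (0.19, 0.02 to 0.36), Mcm4 (0.23) and Mcm2 (0.33) and the factor E2f1 (0.07, -0.20 to 0.35) differed least. Cells of the histone gate only exceeded non-cycling cells by 0.53 (0.43 to 0.62), with 9 of 43 members at least 2-fold higher beside 8.66% of all genes, led by Cdc45 (12 UMIs, 2.27), Gins1 (6 UMIs, 2.02), Fen1 (1.64) and Rrm2 (1.48). With so few UMIs, the order among these is not known. Against non-cycling cells with 0 marker UMIs, 17 of 39 were higher, with no share of all genes given, and the summed ratio was 0.92 (0.82 to 1.02).

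The cells of the marker gate, without the 24 of the histone gate only, were next set in bins of histone UMIs, since a cell in S phase holds many. From 216 cells with 0 to 4 histone UMIs, over 140 cells with 5 to 19 and 137 with 20 to 99, to 201 cells with at least 100, the members summed to 2337, 2786, 3917 and 4950 CPM. The median depth did not follow this order, at 26538, 53860, 33556 and 40317 UMIs. Of the 45 genes, 42 were highest in the top bin, beside 23.0% of all genes with at least 20 UMIs outside the histone gate. Ccne2 lay at 15.0, 12.5, 31.7 and 62.4 CPM and Ccne1 at 18.1, 29.4, 40.7 and 62.8 CPM. Tk1 ran from 30.1 over 58.4 and 78.8 to 102 CPM, and Tyms from 63.6 over 86.7 and 162 to 185 CPM. Slbp, the histone mRNA binding factor, lay at 93.1, 84.5, 166 and 224 CPM, and Pcna at 133, 109, 196 and 273 CPM. Both were thus higher in the upper bins. Pcna was lower in the 5 to 19 bin than in the lowest bin, whereas the intervals of Slbp in these bins overlapped. Mcm5 lay at 55.5, 55.2, 63.5 and 70.4 CPM. This rise was small, though the interval of the top bin (65.1 to 75.9) lay above that of the lowest (49.9 to 61.6). The exceptions were Orc1, which was highest in the bin of 5 to 19 (6.0 CPM), and Gins1 and Pold1, which were highest in the bin of 20 to 99, each with an interval that overlapped that of the top bin. Of the marker genes that chose these cells, which are no members, Mki67 lay at 169, 165, 269 and 287 CPM, Top2a at 357, 458, 678 and 676 CPM, and Ube2c at 596, 801, 611 and 339 CPM, so that Ube2c was lowest in the top bin.

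**Figure D3:**
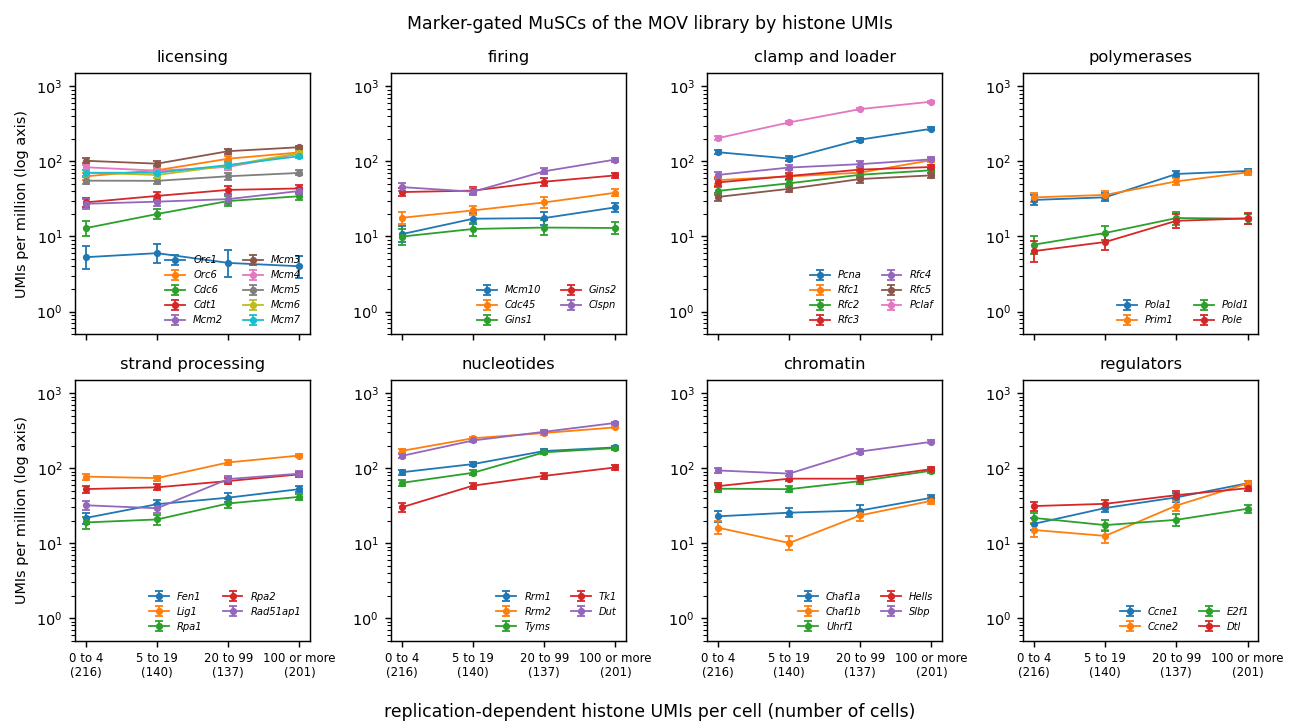
CPM on a log axis of each member, in 8 panels by role, over 4 bins of histone UMIs per cell (0 to 4, 5 to 19, 20 to 99, and 100 or more) in the MOV MuSCs that passed the marker gate. Lines of Ccne2, Ccne1 and Tk1 climb to 62.4, 62.8 and 102 CPM in the top bin, whereas Mcm5 stays between 55.2 and 70.4 CPM and Orc1 between 4.0 and 6.0 CPM.

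Sham and MOV were compared within each state. In the sham library 12 of 117 MuSCs were cycling, at 3467 CPM over the members, and 105 were non-cycling, at 539 CPM. Cycling sham MuSCs exceeded non-cycling ones by a log2 ratio of 2.69 (2.55 to 2.83). Many members passed the limit of 20 UMIs only through the cycling cells, where they were high, so no count of them is given. Among members with more UMIs in both states, Dut differed by 3.87 (3.15 to 4.69), Rrm2 by 3.25 (2.57 to 3.99), Mcm7 by 2.65 (1.93 to 3.44) and Pcna by 1.09 (0.76 to 1.42), while Slbp lay at 117 and 148 CPM (0.33, -0.09 to 0.75). The cycling cells of the 2 libraries were at like levels, with a log2 ratio of the summed members for MOV over sham of 0.02 (-0.04 to 0.09). Per cell, the members made up a median of 39.3 per 10000 UMIs in cycling sham and 31.6 (quartiles 17.6 and 51.0) in cycling MOV MuSCs. Ccne1 alone was at least 2-fold higher in cycling MOV cells (1.36, 9 UMIs in sham), beside 5.42% of all genes. Orc1 (-1.31, 7 UMIs in sham) and Pold1 (-1.12, 17 UMIs in sham) were lower, beside 9.60% of all genes. Neither count of members exceeded the share of all genes. In cells of 20000 to 60000 UMIs, of which sham held 5, the summed ratio was -0.38 (-0.48 to -0.28), so the likeness of the levels rests on 12 cells. Of these 12 cells, 9 passed both gates, with 14.2 to 66.8 member UMIs per 10000, and 3 passed the marker gate only, with 3.63, 4.76 and 14.0. The barcodes of 8 of the 12 cells also occurred in MOV, and in each case the sham copy was the deeper one.

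Non-cycling MuSCs were compared next, as the cells that neither gate placed in division. Their members summed to 764 CPM in MOV and 539 CPM in sham, a log2 ratio of 0.50 (0.38 to 0.64). Of 43 members with enough UMIs, 11 had no UMI in sham, and their ratio was taken as a lower bound against a floor of 3 UMIs. Of these, 3 (Cdc6, Cdc45 and Pole) lay at or under the floor in MOV as well and have no ratio. By this rule 20 members were at least 2-fold higher in MOV, beside 14.1% of all genes, and 1 was lower, beside 10.3%. The median over members was 1.09, compared with 0.12 over all genes. Members with 0 or few UMIs in sham, such as Ccne1 and Prim1, had enough UMIs only through MOV. The count of 20 and the median thus follow in part from the rule on UMIs. Orc1 and Mcm10 had too few UMIs in either library.

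Members differed in direction here. Mcm3 had 4 UMIs in sham and 371 in MOV, at 4.22 and 26.7 CPM (2.66, 1.29 to 4.54), and Mcm5 4 and 237 UMIs, at 4.22 and 17.0 CPM (2.01, 0.64 to 3.90). Mcm6 lay at 8.45 and 29.8 CPM (1.82, 0.83 to 3.04), and Mcm2 had 0 and 127 UMIs (at least 1.53). By contrast Mcm4 (0.22, -0.35 to 0.85) and Mcm7 (0.59, -0.06 to 1.31), subunits of the same ring, were within counting error of equal levels. Among loader genes Rfc3 had 1 and 298 UMIs (4.34, 1.85 to 9.65), Rfc4 6 and 341 (1.95, 0.82 to 3.41), and Rfc1 25 and 462 (0.33, -0.25 to 0.97). Pclaf had 0 UMIs in sham and 298 in MOV (at least 2.76), Uhrf1 0 and 119 (at least 1.43), Ccne1 0 and 133 (at least 1.59) and E2f1 0 and 107 (at least 1.28). Of the nucleotide genes, Dut had 17 and 688 UMIs (1.46, 0.77 to 2.25), Tyms at 9.50 and 23.6 CPM (1.31, 0.37 to 2.45) and Rrm2 at 22.2 and 43.9 CPM (0.98, 0.36 to 1.69), whereas Rrm1 lay at 29.6 and 25.2 CPM (-0.23, -0.78 to 0.38).

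Pcna and Slbp were the members lower in MOV with an interval that excluded 0. Pcna lay at 148 CPM in non-cycling sham MuSCs (140 UMIs) and at 70.8 CPM in MOV (984 UMIs), a log2 ratio of -1.06 (-1.32 to -0.80), and was the member called lower, a call that ended with a mitochondrial limit of 5% (-0.92). Slbp lay at 117 CPM in sham and 63.5 CPM in MOV (-0.88, -1.17 to -0.59). These 2 genes made up the largest member counts of the non-cycling sham MuSCs. After every cell was thinned to 2000 UMIs, Pcna was seen in 25.7% (17.7 to 35.2) of sham and 13.7% (11.4 to 16.3) of MOV non-cycling MuSCs, and Slbp in 23.8% (16.0 to 33.1) and 12.2% (9.97 to 14.7). In sham fiber droplets, which should express neither strongly, the shares were 2.48% and 1.55% (median 4949.5 UMIs per droplet, compared with 7917 per non-cycling sham MuSC), so the MuSC shares were above that background. The direction for both genes was the same in non-cycling Pdgfra cells, where Pcna lay at 141 CPM in sham and 40.2 CPM in MOV (-1.81, -2.30 to -1.29) and Slbp at 111 and 50.3 CPM (-1.14).

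The higher level of the other members in MOV moved with the edge of the cycling gate. Of the non-cycling cells, 248 in MOV but 1 in sham held 1 or 2 UMIs of Mki67, Top2a and Ube2c, which summed to 22.9 and 2.11 CPM. Among cells with 0 UMIs of these markers (536 MOV and 104 sham), the members summed to 581 and 546 CPM, a log2 ratio of 0.09 (-0.04 to 0.22). There 11 of 38 members were at least 2-fold higher and 3 lower, with no share of all genes given. In MOV, 65 of 784 non-cycling cells (8.29%) also reached the lower quartile of cycling cells, 17.6 member UMIs per 10000, as did 3 of 105 in sham (2.86%), and 50 of 718 cycling cells (6.96%) lay at or below the upper quartile of non-cycling ones, 6.73. The median per cell was not higher in MOV, at 4.40 per 10000 UMIs (quartiles 2.96 and 6.73) compared with 5.24 (3.23 and 7.85) in sham. Depth differed as well, with medians of 16166 and 7917 UMIs per cell, and its part was not tested. Tenocyte markers (Scx, Tnmd and Fmod) summed to 374 CPM in MOV and 744 CPM in sham non-cycling MuSCs, and stromal markers to 2166 and 1905 CPM.

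**Figure D4:**
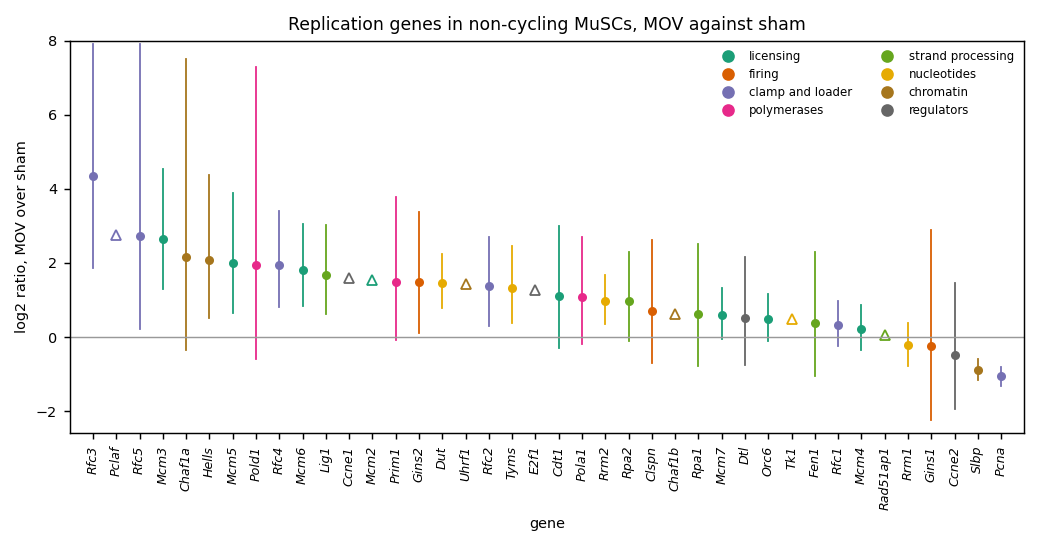
Log2 ratio of CPM in MOV over sham non-cycling MuSCs for the 40 members with enough UMIs and a ratio, colored by role, with bars for the 95% counting interval (upper ends cut at the top of the axis) and open triangles for lower bounds where sham had 0 UMIs. Most points lie above 0, up to Rfc3 at 4.34, while Pcna (-1.06) and Slbp (-0.88) lie below 0 with intervals that do not reach it.

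Differentiating cells were taken as Myog cells, with at least 5 UMIs of the myogenic factor Myog, and as myocytes, with at least 10 UMIs of the embryonic and neonatal myosins Myh3 and Myh8. In MOV there were 168 Myog cells and 35 myocytes, whereas sham held 1 and 0. The members summed to 1615 CPM in Myog cells, above the 764 CPM of non-cycling MuSCs (log2 ratio 1.08, 1.04 to 1.12), and 23 of 44 were at least 2-fold higher, beside 9.68% of all genes, led by Mcm10 (3.05), Pclaf (2.95), Rad51ap1 (2.73) and Cdc45 (2.63). This level joined 74 Myog cells that passed the cycling gate, at 2284 CPM, with 94 that did not, at 553 CPM. Since the MuSC side held no cycling cells, the ratio and the count do not compare cells of the same state. Within the same state, the members were lower in Myog cells than in MuSCs (-0.47 non-cycling and -0.63 cycling). In cells of 20000 to 60000 UMIs, the log2 ratio of all Myog cells over non-cycling MuSCs was 0.38 (0.32 to 0.44). There 8 of 43 members were higher, with no share of all genes given.

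Non-cycling Myog cells lay below non-cycling MuSCs, with a log2 ratio of -0.47 (-0.54 to -0.39). Of 43 members, 0 were at least 2-fold higher and 6 lower, beside 13.3% of all genes, which is close to that share. The 6 were Dtl (-1.86, -3.34 to -0.69), Mcm5 (-1.24), Prim1 (-1.24, -2.28 to -0.35), Pola1 (-1.20), Mcm3 (-1.15, -1.70 to -0.65) and Rrm1 (-1.03). Ccne1 differed in direction, at 16.8 CPM in non-cycling Myog cells and 9.57 CPM in non-cycling MuSCs (0.81, 0.31 to 1.30). With cells of 0 marker UMIs only, Prim1 went to the other side of 0, at 0.23, while the summed ratio was -0.45 (-0.60 to -0.31).

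Cycling Myog cells also lay below cycling MuSCs in the sum of the members (-0.63, -0.66 to -0.60). At least 2-fold lower were 3 of 45 members, beside 7.39% of all genes, so the count did not exceed that share. They were Pole (-1.72, 17 UMIs), Orc1 (-1.30, 9 UMIs) and Prim1 (-1.01). In cells of 20000 to 60000 UMIs, 17 of 45 were lower, a count with no share of all genes beside it, and the summed ratio was -0.87 (-0.92 to -0.81). Not sharing in this were Ccne1 (0.15, -0.07 to 0.36), Cdc45 (27.2 CPM in both) and Mcm2 (-0.05, -0.31 to 0.20), which were within counting error of equal. Within Myog cells, 41 of 44 members were at least 2-fold higher in the cycling ones, beside 7.54% of all genes, and the sum differed by 2.05 (1.97 to 2.12). Members such as Dtl and Ccne2 were among the 44 only through the UMIs of the cycling cells, so the count of 41 follows in part from that rule. Tk1 lay at 3.09 and 38.9 CPM (3.65), Pclaf at 21.6 and 255 CPM (3.56) and Dtl at 2.06 and 22.9 CPM (3.47). Rfc3 (0.80), Orc6 (0.87) and Slbp (0.91) were the 3 below the limit.

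Myocytes summed to 1317 CPM, with 17 of 44 members at least 2-fold higher than in non-cycling MuSCs, beside 13.6% of all genes (log2 ratio of the sum 0.79, 0.73 to 0.84). Of the 35 myocytes 23 were cycling and none of these MuSCs were, so this ratio and count do not compare cells of the same state. The myocytes were also uneven. The 9 myocytes that passed both gates had a median of 100965 UMIs and 2654 CPM, while 11 of the histone gate only held 264 CPM and 12 non-cycling ones 367 CPM. Among the 15 myocytes of 20000 to 60000 UMIs, 0 members were higher and 24 of 41 lower, with no share of all genes given, and the direction of the sum turned (-1.36, -1.57 to -1.16). Non-cycling myocytes were below non-cycling MuSCs (-1.06, -1.25 to -0.87), and 20 of 43 members were at least 2-fold lower, beside 18.7% of all genes, 13 members having no UMI. Members such as Pola1 had enough UMIs only through the MuSCs, so the count of 20 follows in part from the rule on UMIs. Mcm3 had 1 UMI in these 12 cells (-4.11, -9.41 to -1.62), Mcm4 2 UMIs (-3.37) and Tyms 2 UMIs (-2.93). Rrm2 stood against them with 97 UMIs at 150 CPM (1.78). The ratio of Cdc45 (1.04) rested on few UMIs, so its direction is not known.

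Pdgfra cells and Lrrc15 fibroblasts, stromal cells that came through the sort, served for comparison. Both had almost no MuSC marker UMIs (8.46 and 5.86 CPM in non-cycling cells). The members summed to 2799 CPM in 100 cycling and 413 CPM in 153 non-cycling Pdgfra cells of MOV (log2 ratio 2.76, 2.69 to 2.83), and all 44 with enough UMIs were at least 2-fold higher, beside 8.07% of all genes. In Lrrc15 fibroblasts they summed to 2128 CPM in 111 cycling and 489 CPM in 164 non-cycling cells (2.12, 2.06 to 2.18), with 42 of 45 higher beside 6.03% of all genes. In both classes, members such as Pole and Rad51ap1 had enough UMIs only through the cycling cells. The counts of 44 and 42 thus follow in part from the rule on UMIs. Rad51ap1 had 1 UMI in non-cycling and 166 in cycling Pdgfra cells (7.50, 5.00 to 12.81) and 3 and 154 UMIs in Lrrc15 fibroblasts (5.66, 4.08 to 7.95). Tk1 lay at 1.37 and 132 CPM in Pdgfra cells (6.59) and at 2.31 and 69.9 CPM in Lrrc15 fibroblasts (4.92). Rfc1 and Slbp were again at the low end, at 1.04 and 1.32 in Pdgfra cells and at 0.82 and 0.93 in Lrrc15 fibroblasts, where Ccne1 (0.80) was the other gene under the limit.

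Cycling stromal cells carried less of the members than cycling MuSCs, by -0.33 in Pdgfra cells and -0.73 in Lrrc15 fibroblasts on the log2 scale. In Pdgfra cells 5 of 45 were at least 2-fold lower, beside 14.9% of all genes, a count that did not exceed that share. In Lrrc15 fibroblasts 13 of 45 were lower, beside 16.4%. Rrm2 was lowest in both, at 96.3 CPM in cycling Pdgfra cells and 72.9 CPM in cycling Lrrc15 fibroblasts compared with 269 CPM in cycling MuSCs (-1.48, -1.63 to -1.33, and -1.88, -2.03 to -1.74). Its partner subunit Rrm1 lay at 123, 112 and 140 CPM. Mcm3 (-1.05 and -1.42) and Cdc6 (-1.11 and -1.47) were likewise lower in both. Tk1 was higher in cycling Pdgfra cells than in cycling MuSCs (0.95, 0.81 to 1.09) and at like levels in Lrrc15 fibroblasts (0.03, -0.12 to 0.19). Between libraries, non-cycling Pdgfra cells (24 in sham at 479 CPM) differed by -0.22 (-0.46 to 0.04). Of 24 members, 3 were higher in MOV, beside 9.41% of all genes, and 5 lower, beside 16.6%, both close to those shares.

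The number of members seen in a cell was counted after each cell was thinned to 2000 UMIs. Cycling MOV MuSCs showed a median of 5 of the 45 genes (quartiles 3 and 9, at most 20), and 3.62% of them showed none. Non-cycling MOV MuSCs showed a median of 1 (0 and 2, at most 19) and non-cycling sham MuSCs 1 (0 and 1, at most 4), with none in 36.8% and 29.5% of cells. Cycling sham MuSCs showed 6 (2.75 and 8.25). Cycling Myog cells, Pdgfra cells and Lrrc15 fibroblasts showed medians of 3, 4 and 3, and their non-cycling counterparts 1, 0.5 and 1. Sham fiber droplets, as a background, showed 0 (0 and 1, at most 3), with none in 72.7%.

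**Figure D5:**
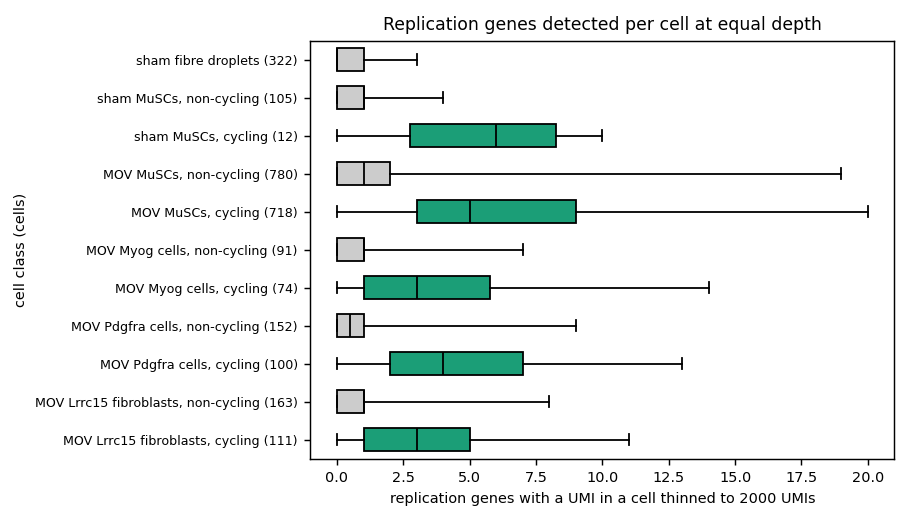
Number of the 45 genes with a UMI per cell after thinning to 2000 UMIs, by class (boxes give quartiles, whiskers the full range, cycling classes in green). Cycling MOV MuSCs have a median of 5 and non-cycling MOV MuSCs a median of 1, with whiskers that reach 20 and 19.

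The share of cells behind these classes was measured with gate genes, not with members. In MOV, 718 of 1502 MuSCs were cycling (47.8%, exact binomial interval 45.2 to 50.4), compared with 12 of 117 in sham (10.3%, 5.41 to 17.2). Because the gate counts UMIs, the share depends on depth, and in cells of 20000 to 60000 UMIs it was 66.4% in MOV and 62.5% in sham, where it rested on 5 of 8 cells. With 8 sham cells of this depth, a difference in share between the libraries could not be shown or left out. In MOV the share was 44.0% (36.4 to 51.9) of Myog cells, 65.7% (47.8 to 80.9) of myocytes, 39.5% (33.5 to 45.8) of Pdgfra cells and 40.4% (34.5 to 46.4) of Lrrc15 fibroblasts. Of the 23 cycling myocytes, 11 passed the histone gate only, and the share of myocytes was 34.3% with the marker gate alone and 22.9% with gates per 10000 UMIs. In sham, 0 of 24 Pdgfra cells were cycling, which allows a share of up to 12.5% by a floor of 3 cells and of up to 14.2% by the exact interval. As a background, 45 of 404 sham fiber droplets passed the histone gate alone, and fiber droplets held 171 CPM of the members.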

How the data were processed

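The authors aligned 10x 3′ reads to mm10 with Cell Ranger 6.0.0 and deposited filtered UMI count matrices, which are whole numbers with no normalization. Counts were analyzed in Python 3.11.15 (numpy 2.4.6, scipy 1.17.1, pandas 2.3.3). Cells with a mitochondrial share of at least 10% were removed (362 sham, 794 MOV), and then the cells with the highest doublet scores (scanpy 1.11.5, 0.8% per 1000 cells, 4 and 75 cells).

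Classes were set by UMI gates in a fixed order, the first match winning: other cells (Ptprc, Pecam1, Cdh5 and further markers, at least 3 UMIs), fiber droplets (Myh1, Myh2 and Myh4, at least 5 UMIs, 500 CPM and above Myh3, Myh8 and Myog), myocytes (at least 10 UMIs and 200 CPM), Myog cells (at least 5 UMIs and 200 CPM), mixed cells, Lrrc15 and Pdgfra cells (at least 2 UMIs each) and MuSCs. Histone H2B genes were left out of the gate because the reporter is an H2B fusion. UMIs were summed per class and library. Ratios have exact conditional 95% intervals, levels exact Poisson and shares exact binomial (Clopper-Pearson) intervals, all for counting error only. A class at 0 UMIs was taken at 3 UMIs. No test was made across cells, which are not replicates. The ratio step was tested on simulated data.

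All 45 members are described, and from the 55 other replication genes the 4 highest and 4 lowest plus Gmnn, except that some items are not reported here. All member identifiers matched the annotation of the same build. Pseudogenes of Tyms and Pcna are annotated there but have no row in the matrices, so reads from them could not be told apart. The members, gates and lists were chosen with earlier results of these data known. The alternatives were other mitochondrial limits, other gates, other scaling (factors from edgeR 4.0.16 and DESeq2 1.42.0 in R 4.3.3), other filters and another thinning depth. Plots were drawn with matplotlib 3.10.9.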

Additional observations from a re-analysis of the deposited data

How the results depend on the processing

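No paired analysis was possible because there is 1 library per condition, and for the same reason no replicate could be left out. Of 188 values of comparisons recomputed under the alternatives, 155 stayed within the limits set and 33 moved, and of 1935 ratios of single members 1836 stayed, 98 moved and 1 turned. The cause was not tested for any of them except where fewer cells remained. With a mitochondrial limit of 5%, 2 members were lower in MOV non-cycling MuSCs, and the cycling share of sham MuSCs was 20% (8 of 40 cells). With every cell given equal weight, 2 were lower in MOV. With a histone gate of 3 UMIs, 10 members were lower in non-cycling myocytes, and the cycling shares were 52.5% (MOV MuSCs), 58.3% (Myog cells), 82.9% (myocytes), 45.8% (Pdgfra cells) and 54.9% (Lrrc15 fibroblasts). With a histone gate of 10 UMIs, 14 members were higher with both gates, and the shares were 37.1% (myocytes) and 33.8% (Lrrc15 fibroblasts). With the marker gate alone they were 34.3% and 33.5%. With gates per 10000 UMIs, 3 members were lower in non-cycling Myog cells, and the shares were 31.0% (Myog cells), 22.9% (myocytes) and 32.0% (Lrrc15 fibroblasts). With at least 100 UMIs per gene, 11 members were higher in myocytes. Thinned to 5000 UMIs, the median number of members per cell was 11 in cycling MOV and 2 in non-cycling sham MuSCs.

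Other alternatives were chosen after seeing the data. With non-cycling cells of 0 marker UMIs only, 11 members were higher and 3 lower in MOV, 39 higher in Myog cells and 26 in myocytes. This setting kept every cycling cell, 74 of 116 Myog cells and 23 of 27 myocytes. The counts of 39 and 26 thus do not describe non-cycling cells, whose summed ratio in Myog cells was -0.45. Prim1 in non-cycling Myog cells turned to 0.23. In cells of 20000 to 60000 UMIs, 8 members were higher in Myog cells and 0 in myocytes, 10 were lower in non-cycling Myog cells, and the shares were 66.4% (MOV MuSCs), 62.5% (sham MuSCs) and 35.6% (Myog cells). Too few sham non-cycling MuSCs had this depth for a ratio. Of the histone gate genes, Hist1h4i (309 UMIs), Hist1h4h (302) and Hist2h2aa1 (42) had the most in sham fiber droplets, and Hist2h2aa2 had 1. Other gate genes, such as Hist2h3c2 (14), had UMIs there too. Without Hist1h4i, Hist1h4h, Hist2h2aa1 and Hist2h2aa2 in the gate, the shares were 42.9% (myocytes) and 33.5% (Lrrc15 fibroblasts). The log2 ratio of Pcna in MOV over sham non-cycling MuSCs ranged from -1.38 to -0.92, the latter with the mitochondrial limit of 5%, where it was no longer called. The depth of the sham library, with 510 member UMIs in non-cycling MuSCs, limits every comparison with it.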
